A study of Mus musculus with 14 samples.

Results

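Mouse bone marrow derived macrophages labelled as Elavl1 knockout were compared with macrophages labelled wild type by poly(A) mRNA sequencing. The comparison used 8 of the 14 libraries of the series, namely the 4 mRNA libraries labelled wild type (WT 1 to 4) and the 4 labelled knockout (KO 1 to 4), chosen by assay and genotype label. All were C57BL/6, and all carried the floxed Elavl1 allele (ELAVL1f/f). The KO cells also carried LysM-Cre, a Cre recombinase expressed from the lysozyme gene Lyz2 in myeloid cells, which no WT library carried. An effect of the Cre insertion and an effect of losing ELAVL1 therefore cannot be told apart in these libraries. Marrow cells were grown with 20% medium from the fibroblast line L929, a source of the macrophage growth factor CSF1. The protocol gives 6 days of culture and the series description 7, with no stimulus named. The labels tie no number to a mouse or a day, and every p-value below reflects the spread among libraries, which may in part be technical.

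ELAVL1, also called HuR, is an RNA-binding protein of the nucleus and cytoplasm that binds uridine-rich and AU-rich elements, mostly in introns and in the untranslated ends of mRNAs. It is known for protecting many short-lived mRNAs from decay, and it competes or cooperates with decay factors such as tristetraprolin (gene Zfp36) and with miRNA-loaded Argonaute proteins. In macrophages many of the mRNAs it is reported to bind encode cytokines, chemokines, growth factors and inducible enzymes, which is why the mRNA levels of such genes are described here group by group.

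Each library held between 8160789 and 25030262 counts over 21444 genes, of which 14019 passed the filter on low counts. Levels are given as CPM, the gene's counts scaled to a common library size with TMM factors, and fold changes are log2 ratios of KO over WT from an edgeR fit in which each KO library is set against the WT library of equal number. These 4 sets of 2 libraries are called pairs. The macrophage genes measured high in every library. Csf1r, the CSF1 receptor, stood at 1691 to 3432 CPM, Adgre1 (F4/80) at 2740 to 4271 CPM and Itgam (CD11b) at 1604 to 2452 CPM. The T cell gene Cd3e had at most 0.129 CPM, the neutrophil gene Ly6g at most 0.0527 CPM and the B cell gene Cd79a at most 1.46 CPM in any library. Not all genes on those marker lists were that low. T and NK cell markers summed to 35.8 to 296 CPM in WT and 38.7 to 249 CPM in KO, nearly all from Il7r at 4.43 to 192 CPM and Cd4 at 30.3 to 107 CPM. B cell markers summed to 62.9 to 72.1 CPM in WT and 56.3 to 73.1 CPM in KO, mostly from Cd79b at 24.8 to 53.1 CPM and Cd22 at 14.4 to 39.6 CPM. Neutrophil markers were led by the G-CSF receptor gene Csf3r at 73.3 to 115 CPM, with Mmp8 at 1.27 to 23.5 CPM and Mpo at 3.46 to 30.6 CPM. The Y-linked gene Ddx3y measured 38.1, 24.5, 0 and 0 CPM in WT 1 to 4 and 24.8, 24.3, 0.0860 and 0.0384 CPM in KO 1 to 4, so the libraries of each pair matched in its presence.

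The targeted gene itself, Elavl1 (ENSMUSG00000040028), had no lower mRNA level in KO than in WT libraries. It measured 65.9, 61.2, 62.6 and 64.2 CPM in WT 1 to 4 and 76.8, 64.1, 64.9 and 72.4 CPM in KO 1 to 4. The KO library was the higher one in every pair, by a log2 fold change of 0.13 (SE 0.08, edgeR adjusted p = 0.638), and the groups overlapped. A count over the whole gene does not separate a deleted exon from the exons that remain. The values therefore neither show nor deny a deletion, and WT and KO are used below as the labels give them. Elavl2, Elavl3 and Elavl4, the neuronal members of the family, had at most 2 counts in any library.

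The smallest p-values belonged to the lysozyme genes, Lyz2 and its tandem copy Lyz1, which encode the bacterial cell wall enzyme that macrophages secrete in quantity. Lyz2 (ENSMUSG00000069516) measured 9949, 10713, 15451 and 13598 CPM in WT 1 to 4 and 3723, 5091, 5314 and 6142 CPM in KO 1 to 4. Every KO library lay below every WT library. Lyz2 fell by 1.29 on the log2 scale (SE 0.10, edgeR adjusted p = 0.000472). By the authors' deposited RPKM, a level per length, Lyz2 ranked 3 to 6 among all genes in the WT libraries and 8 to 11 in the KO libraries, so it remained among the most abundant mRNAs. Lyz1 (ENSMUSG00000069515) measured 1380, 1344, 2063 and 1899 CPM in WT and 537, 600, 780 and 826 CPM in KO. It fell by 1.28 (SE 0.08, edgeR adjusted p = 8.63e-05), again with no overlap between the groups. Counts of Lyz1 were 11.8% to 14.7% of those of Lyz2 in every library of either genotype, so both genes fell in the same proportion.

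How alike the transcripts of the copies are could not be checked here. Both lie on the minus strand of chromosome 10, and the 100 bases just upstream of their annotated starts are shown because they are the sequence at hand in which the copies can be compared. They come from RefSeq on GRCm38.p6, whereas the counts were made on mm9, at chr10:117292869-117292968 for Lyz1 and chr10:117282273-117282372 for Lyz2. Capitals mark the positions at which the copies differ.
Lyz1: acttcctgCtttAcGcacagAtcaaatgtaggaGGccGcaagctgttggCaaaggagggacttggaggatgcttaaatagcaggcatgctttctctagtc
Lyz2: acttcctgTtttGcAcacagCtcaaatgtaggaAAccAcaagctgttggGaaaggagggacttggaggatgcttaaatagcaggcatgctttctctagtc
The copies share 92 of these 100 bases, and 79.4% of the aligned columns over the full 250 upstream bases. These bases lie before the annotated starts, so they do not show how alike mRNA reads of the copies are. How the authors assigned reads that match both copies is not given in the sources used here, so the Lyz1 values are uncertain.

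**Figure D1:**
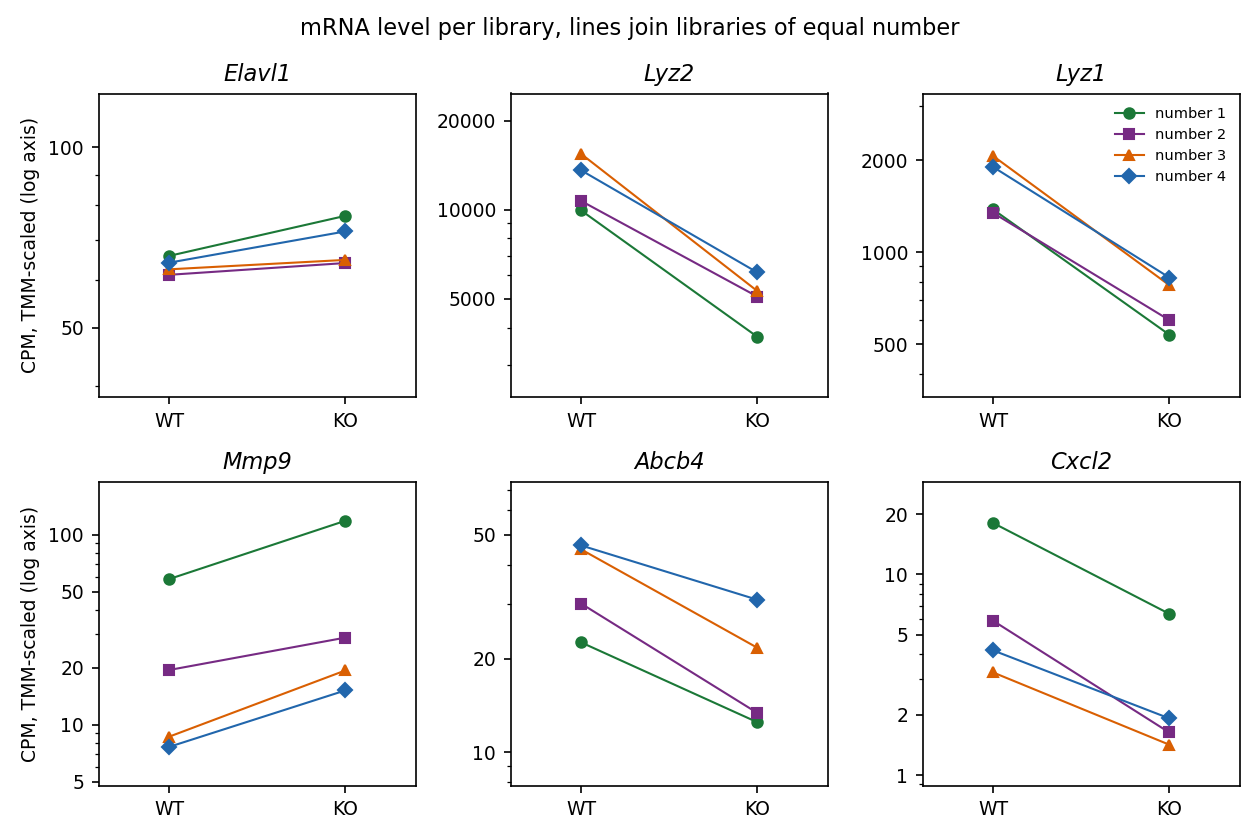
Level of 6 genes in each library, as CPM on a log axis, with WT on the left and KO on the right of each panel and lines joining libraries of equal number. Elavl1 lines run slightly upward, Lyz2, Lyz1, Abcb4 and Cxcl2 lines run downward and Mmp9 lines run upward in all 4 pairs, while for Mmp9 and Cxcl2 the number 1 libraries sit far above the others in both genotypes.

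The genes beside Lyz2 on the chromosome had much smaller shifts. Among the 10 tested genes on each side in RefSeq order, the 19 other than Lyz1 had log2 fold changes of -0.11 to 0.21, with a median of -0.01. Dyrk2, a protein kinase gene, was the only one at an unadjusted p under 0.05, at 0.21 (SE 0.09, edgeR adjusted p = 0.520), and Frs2, a growth factor receptor adaptor, the only one higher in all 4 pairs, at 0.17 (SE 0.09). The 20 tested genes around Elavl1 had log2 fold changes of -0.50 to 0.38 with a median of -0.04, and 0 of them reached an unadjusted p under 0.05.

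**Figure D2:**
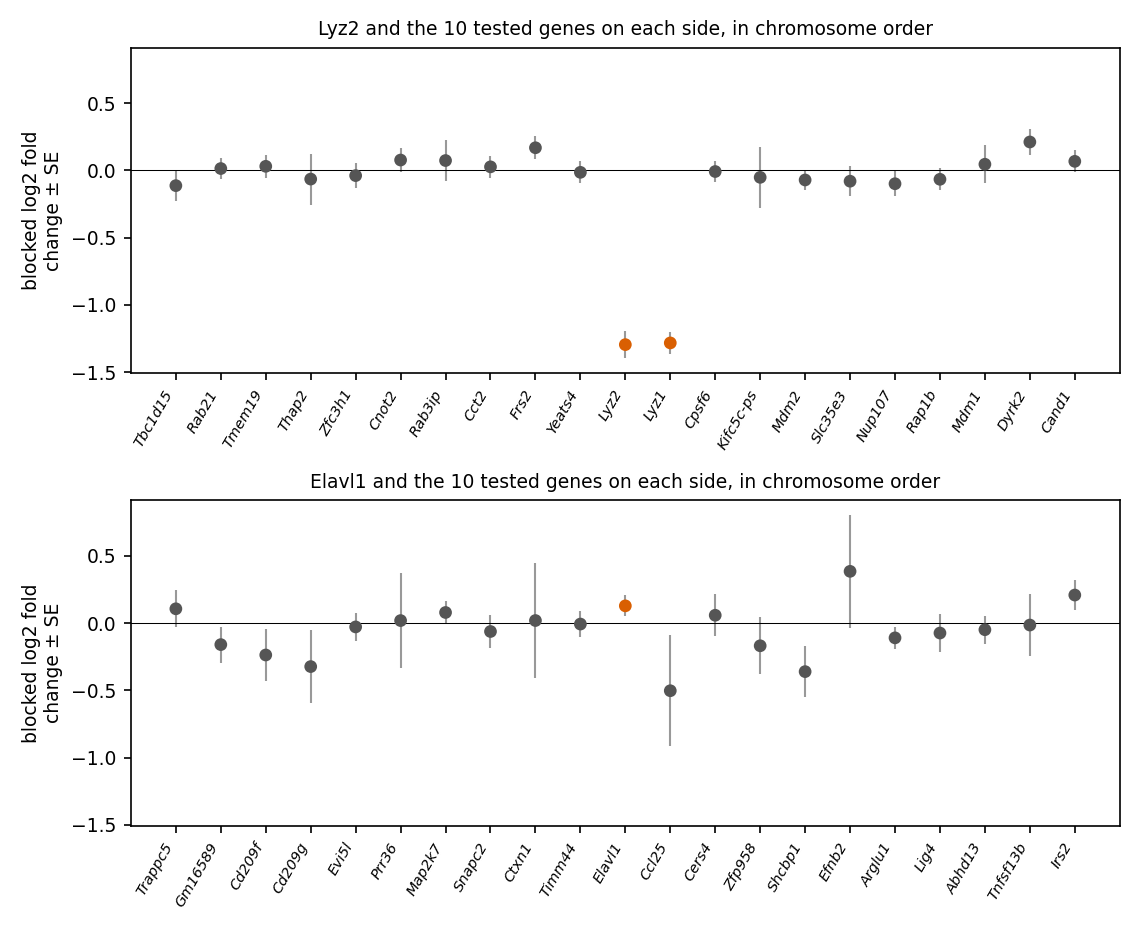
Blocked log2 fold change of KO over WT, with its standard error, for Lyz2 (top) and Elavl1 (bottom) and the 10 tested genes on each side, placed by order and not by distance. Lyz2 and Lyz1, in orange, lie near -1.3, while their 19 neighbours lie between -0.11 and 0.21 and Elavl1 lies at 0.13.

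Across all genes the shifts were small. edgeR with the pairs in the fit called 5 of 14019 genes (0.0357%) at an adjusted p under 0.05, of which Mmp9 rose (0.00713%) and Lyz1, Lyz2, Abcb4 and Cxcl2 fell (0.0285%). An unadjusted p under 0.05 was reached by 1321 genes (9.42%), 687 higher (4.9%) and 634 lower (4.52%). All 4 pairs shifted the same way for 2492 genes (17.8%), with 1334 higher (9.52%) and 1158 lower (8.26%) in KO. The median size of those shifts was 0.21 on the log2 scale for the higher genes and 0.25 for the lower genes. If the direction of each pair were random, a share of 0.125 would shift the same way in 4 pairs, so many of these genes need not reflect genotype. Counts of list members below are to be read beside the 9.52% and 8.26%. The lists were chosen with earlier results of these data known, so an excess over these shares is not independent evidence. Shifts of at least 1.2-fold in every pair were found for 215 genes (1.53%), 86 higher (0.613%) and 129 lower (0.92%). Shifts of at least 1.5-fold in every pair were found for 33 genes (0.235%), 14 higher and 19 lower. The 4 KO and 4 WT libraries did not overlap for 110 genes (0.785%), 49 higher and 61 lower. DESeq2 with the same pairs called 82 genes (0.585%), 35 higher and 47 lower, and 77 of the 82 had all 4 pairs in 1 direction. With the replicate block left out, edgeR called 0 genes and 81 had an unadjusted p under 0.05 (0.578%). DESeq2 without the block called 3 genes, Lyz1, Lyz2 and Tep1, all lower. The calls of Mmp9, Abcb4 and Cxcl2 therefore depend on setting each KO library against the WT library of its number. The lysozyme calls depend on it in edgeR but not in DESeq2.

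**Figure D3:**
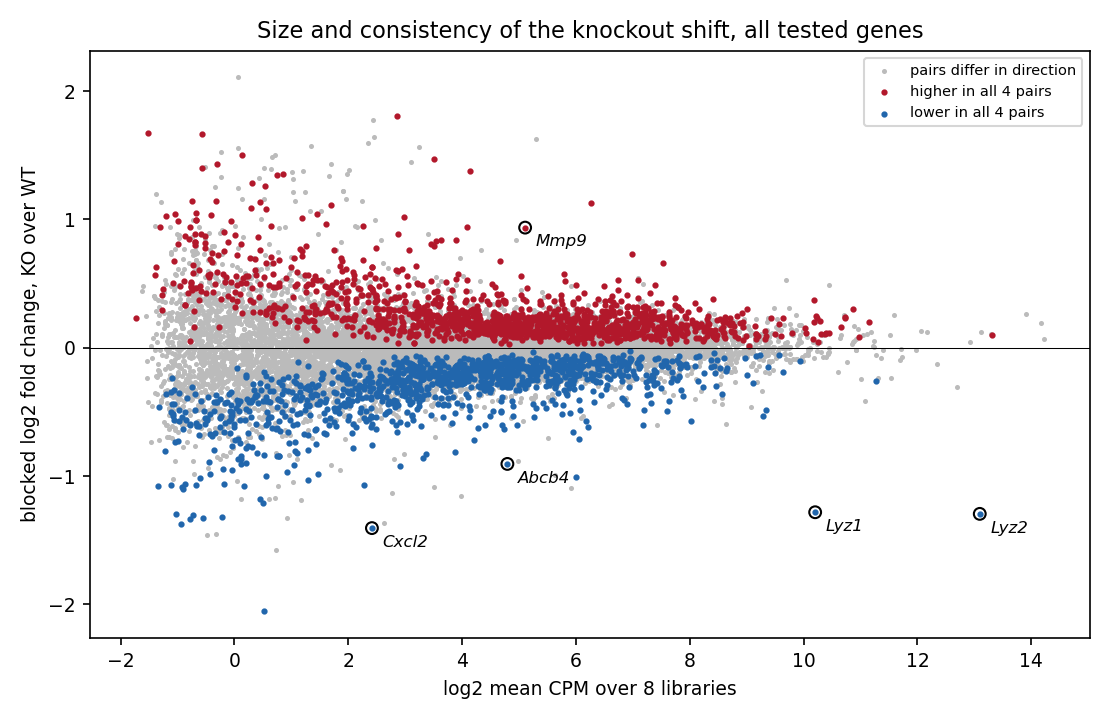
Each of the 14019 tested genes by its log2 mean CPM over the 8 libraries (x axis) and its blocked log2 fold change of KO over WT (y axis), coloured red or blue where all 4 pairs shifted the same way. The 1334 red and 1158 blue points lie mostly close to 0, and Lyz2 and Lyz1 stand apart among abundant genes.

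Mmp9 was the single gene that rose in KO by the edgeR test. It encodes gelatinase B, a secreted matrix metalloproteinase, and its mRNA is a reported ELAVL1 target. Mmp9 (ENSMUSG00000017737) measured 58.5, 19.4, 8.66 and 7.65 CPM in WT 1 to 4 and 118, 28.8, 19.3 and 15.2 CPM in KO 1 to 4. The number 1 libraries were by far the highest in both genotypes, so the groups overlapped although every KO library exceeded its WT partner. It rose by 0.94 on the log2 scale (SE 0.11, edgeR adjusted p = 0.0152). Without the number 1 libraries it was 0.90 (edgeR adjusted p = 0.164) and without number 4 it was 0.91 (edgeR adjusted p = 0.0630), so the call ended though the size was close. Of the 26 tested genes on a list of matrix metalloproteinases and their inhibitors, 3 (11.5%) were higher in all 4 pairs and 2 (7.69%) lower. The shares over all tested genes were 9.52% and 8.26%, and the median of the list was -0.04. Timp1, an inhibitor of MMP9 and other gelatinases, measured 0.208, 0.187, 0.548 and 1.41 CPM in WT and 0.637, 0.211, 2.41 and 3.22 CPM in KO, a log2 fold change of 1.5 (SE 0.33, edgeR adjusted p = 0.171). Mmp14, a membrane-bound metalloproteinase that activates others, had a log2 fold change of 0.36 (SE 0.09, edgeR adjusted p = 0.215). The lower members were Adamts1, a proteoglycan-cleaving protease, at -0.59 (SE 0.18), and Adam17, the protease that sheds TNF from the cell surface, at -0.10 (SE 0.07).

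Cxcl2, a chemokine that draws neutrophils through the receptor CXCR2, had the steepest fall of the called genes. Cxcl2 (ENSMUSG00000058427) measured 18.1, 5.88, 3.25 and 4.19 CPM in WT 1 to 4 and 6.37, 1.63, 1.42 and 1.92 CPM in KO 1 to 4. The KO library was the lower one in every pair, and the groups overlapped only through KO 1. It fell by 1.41 on the log2 scale (SE 0.18, edgeR adjusted p = 0.0213). The KO values rest on 50, 31, 33 and 50 counts. The fold change was -1.37 without the number 1 libraries (edgeR adjusted p = 0.164) and -1.51 without number 4 (edgeR adjusted p = 0.0526), and the call ended in both.

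Among 20 tested chemokine ligand genes, 3 were lower and 3 higher in all 4 pairs. That is 15% each way, beside 8.26% lower and 9.52% higher over all tested genes. The lower chemokine genes were Cxcl2, Cxcl1 and Cxcl16. Cxcl1, which acts on the same receptor as Cxcl2, measured 6.99, 1.03, 1.10 and 0.725 CPM in WT and 4.08, 0.369, 0.301 and 0.614 CPM in KO, a log2 fold change of -0.97 (SE 0.31, edgeR adjusted p = 0.336). Cxcl3, the third neighbour of that cluster, measured 3.11, 1.68, 0.509 and 0.604 CPM in WT and 0.892, 0.685, 0.559 and 0.269 CPM in KO and was lower in 3 of 4 pairs. Cxcl16, a membrane-bound ligand that also takes up oxidised lipids, had a log2 fold change of -0.22 (SE 0.08, edgeR adjusted p = 0.446). The higher ones were the platelet-type ligands Pf4, at 0.44 (SE 0.14), and Ppbp, at 0.17 (SE 0.19), and the membrane-bound Cx3cl1, at 0.20 (SE 0.16), none of which passed the test.

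The longest run of bases shared by the 250 upstream bases of Cxcl1, Cxcl2 and Cxcl3 was GGGAATTTCCC, 11 bases that hold a form of the kappa B site, to which NF-kB binds. The windows are shown because these 3 neighbours on chromosome 5 are read together above, and the run was looked for after their values were known. They come from RefSeq on GRCm38.p6, plus strand, at chr5:90891159-90891199, chr5:90903787-90903827 and chr5:90786013-90786053 in that order, and capitals mark the shared run.
Cxcl1: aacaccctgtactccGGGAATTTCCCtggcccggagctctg
Cxcl2: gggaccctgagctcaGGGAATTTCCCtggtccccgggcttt
Cxcl3: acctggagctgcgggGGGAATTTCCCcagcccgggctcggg
Searched on either strand, these letters were found upstream of 3 of 15 tested chemokine genes with a window (20%), which are the 3 they were taken from. They were found upstream of 8 of 9405 tested genes with a window (0.0851%) and in 0.0426% of all 32851 windows. A match is a description of the sequence and not evidence of binding.

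Abcb4 encodes a transporter that moves phosphatidylcholine across membranes and is best known from the bile canaliculi of the liver. Abcb4 (ENSMUSG00000042476) measured 22.6, 30.1, 44.9 and 46.3 CPM in WT 1 to 4 and 12.5, 13.4, 21.7 and 30.9 CPM in KO 1 to 4. Each KO library was below its WT partner, and the groups overlapped. It fell by 0.91 on the log2 scale (SE 0.11, edgeR adjusted p = 0.0204). Without the number 1 libraries the fold change was -0.92 and the call ended (edgeR adjusted p = 0.115).

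Just past the threshold stood a run of genes at an edgeR adjusted p of 0.0509, and DESeq2 with the pairs called all of those named here except Asb4. Lsp1, an actin-binding protein of leukocytes, measured 5.88, 92.7, 51.0 and 50 CPM in WT 1 to 4 and 14.3, 118, 134 and 146 CPM in KO 1 to 4, a log2 fold change of 1.13 (SE 0.17). Mn1, a transcriptional cofactor known from myeloid leukaemia, measured 15.8, 10.2, 4.19 and 5.03 CPM in WT and 31.7, 15.6, 7.61 and 9.25 CPM in KO, a log2 fold change of 0.84 (SE 0.12). Cnn2, the actin-binding calponin of macrophages, had a log2 fold change of 0.73 (SE 0.11). In all 3 the KO library was above its partner in every pair while the groups overlapped.

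On the lower side of that run were Tep1, Hgsnat, Fabp4, Pam and A530064D06Rik. Tep1, a telomerase-associated protein, measured 180, 152, 181 and 188 CPM in WT 1 to 4 and 112, 125, 119 and 105 CPM in KO 1 to 4, with no overlap between the groups and a log2 fold change of -0.60 (SE 0.09). Hgsnat, the lysosomal enzyme that acetylates heparan sulfate for its breakdown, measured 75.1, 74.9, 95.6 and 102 CPM in WT and 56.6, 55.2, 53.7 and 68.1 CPM in KO, again with no overlap and at -0.57 (SE 0.09). Fabp4, the fatty acid binding protein of adipocytes and macrophages, measured 20.1, 35.3, 146 and 125 CPM in WT and 13.5, 19.6, 111 and 61.8 CPM in KO, at -0.71 (SE 0.11). Pam, which amidates peptide hormones, was at -0.60 (SE 0.09), and the uncharacterised gene A530064D06Rik at -0.86 (SE 0.13). Asb4, at -2.05 (SE 0.31) and the same adjusted p, was too low in level for the rule by which genes are named and was chosen after its value was seen.

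The remaining genes of smallest p had all 4 pairs in 1 direction and adjusted p values of 0.0608 to 0.126 by edgeR. On the higher side they were Pcp4l1 at 0.58, Fnbp4 at 0.53, Tmem154 at 0.79, Lrrc14b at 0.83, Mamdc2 at 0.84 and Ptafr, the receptor for platelet-activating factor, at 0.45. On the lower side they were Dnajb4, a heat shock cochaperone, at -0.72, Ahrr, the repressor of the aryl hydrocarbon receptor, at -0.83, and Dram1, a p53-induced lysosomal membrane protein, at -0.42. Dram1 measured 111, 89.9, 82.7 and 82.0 CPM in WT and 80.5, 68.2, 59.5 and 63.9 CPM in KO, so its groups did not overlap.

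**Figure D4:**
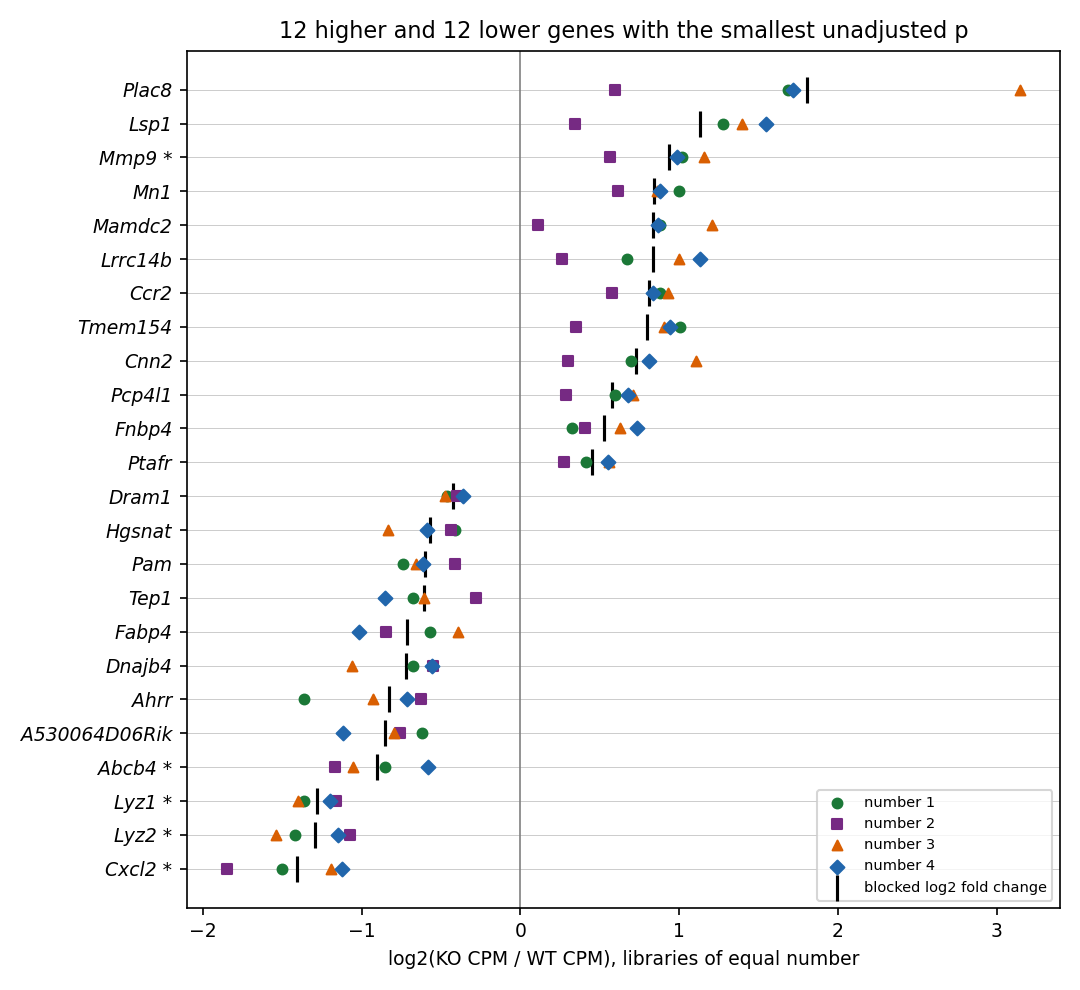
Log2 ratio of KO over WT CPM in each pair of libraries (coloured points) and the blocked log2 fold change (black bar) for the 12 higher and 12 lower genes with the smallest p among those with all pairs in 1 direction and a mean of at least 5 CPM. The 5 genes marked with a star passed at an edgeR adjusted p under 0.05, and the pair 2 point is the closest to 0 for 11 of the 12 higher genes.

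The reported ELAVL1 target mRNAs were found on both sides. Of 41 tested targets 6 (14.6%) were higher and 8 (19.5%) lower in all 4 pairs, beside 9.52% and 8.26% of all tested genes, and the median log2 fold change was -0.08. The higher ones were Mmp9, Zfp36, Cdkn1a, Jun, Thbs1 and Tgfb1. The lower ones were Cxcl2, Vegfa, Nos2, Ptgs2, Dusp1, Cxcl1, Ccne1 and Hif1a. Only Mmp9 and Cxcl2 passed the edgeR test.

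Several lower targets encode inducible enzymes and growth factors of inflammation. Nos2, inducible nitric oxide synthase, measured 9.75, 6.26, 3.96 and 6.08 CPM in WT 1 to 4 and 5.48, 1.26, 1.94 and 4.26 CPM in KO 1 to 4, a log2 fold change of -1.07 (SE 0.25, edgeR adjusted p = 0.192). Ptgs2, the inducible cyclooxygenase, measured 4.91, 1.49, 3.29 and 3.50 CPM in WT and 2.04, 0.421, 1.46 and 2.53 CPM in KO, a log2 fold change of -1.03 (SE 0.24, edgeR adjusted p = 0.195). Vegfa, the vascular growth factor, measured 31.8, 134, 72.9 and 77.5 CPM in WT and 24.5, 94.6, 57.2 and 47.7 CPM in KO, a log2 fold change of -0.49 (SE 0.09, edgeR adjusted p = 0.0852). In these 3 genes the levels of WT and KO overlapped across numbers, and blocked DESeq2 called Nos2 and Vegfa. Tnf, the cytokine whose mRNA is a textbook ELAVL1 and tristetraprolin target, measured 95.2, 51.1, 71.2 and 68.2 CPM in WT and 99.6, 58.4, 52.8 and 60.4 CPM in KO, higher in 2 pairs and lower in 2 (log2 fold change -0.09, SE 0.10).

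Among the higher targets, Zfp36, whose product tristetraprolin speeds the decay of AU-rich mRNAs, measured 133, 139, 138 and 194 CPM in WT 1 to 4 and 154, 160, 207 and 253 CPM in KO 1 to 4, a log2 fold change of 0.35 (SE 0.08, edgeR adjusted p = 0.202). Cdkn1a, the cell cycle inhibitor p21, was at 0.29 (SE 0.10), Jun at 0.22 (SE 0.07) and Thbs1, thrombospondin 1, at 0.28 (SE 0.10). Of 24 tested genes for AU-rich element binding proteins 4 (16.7%) were higher in all 4 pairs, namely Elavl1, Zfp36, Celf1 and Hnrnpdl. Tial1 (4.17%) was lower, and the median was 0.06. The shares over all tested genes were 9.52% higher and 8.26% lower. Celf1 was at 0.11, Hnrnpdl at 0.04 and Tial1 at -0.14, each with an edgeR adjusted p above that of Elavl1.

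In the miRNA silencing machinery, which includes the Argonaute proteins that hold miRNAs, 5 of 24 tested genes were higher in all 4 pairs (20.8%) and 1 lower (4.17%). The shares over all tested genes were 9.52% and 8.26%, and the median of the list was 0.01. Ago4 measured 9.75, 18.0, 15.9 and 13.7 CPM in WT 1 to 4 and 18.2, 19.6, 20.7 and 18.8 CPM in KO 1 to 4, with no overlap and a log2 fold change of 0.45 (SE 0.13, edgeR adjusted p = 0.286). Ago2, the Argonaute that can cleave its targets, measured 63.3, 36.4, 56.4 and 67.8 CPM in WT and 65.4, 39.9, 71.5 and 70.2 CPM in KO, at 0.14 (SE 0.09). Ago1 was at 0.12 (SE 0.07) and the decapping cofactor gene Dcp1a at 0.19 (SE 0.09). Cnot8, a deadenylase of the CCR4-NOT complex, was at 0.12 (SE 0.08), while Pan2, a deadenylase subunit, was at -0.21 (SE 0.11). All 6 missed the threshold.

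Inflammatory signalling genes shifted in both directions. Of 45 tested genes of Toll-like receptor signalling and NF-kB feedback 9 were higher (20.0%) and 4 lower (8.89%) in all 4 pairs. The shares over all tested genes were 9.52% and 8.26%, and the median of the list was 0.04. The lower ones include 2 inhibitors of NF-kB activation, Tnip3 at -0.44 (SE 0.11) and Tnfaip3 (A20) at -0.32 (SE 0.09), with Tlr13, a receptor for bacterial ribosomal RNA, at -0.21 and Cd14, the lipopolysaccharide coreceptor, at -0.18. The higher ones include Socs1, a brake on cytokine signalling, at 0.33 (SE 0.14), the adaptor gene Tirap at 0.23, the NF-kB cofactor gene Bcl3 at 0.21 and the DNA receptor gene Tlr9 at 0.17. Tnip3 measured 77.6, 35.0, 64.2 and 53.5 CPM in WT 1 to 4 and 57.5, 29.5, 36.5 and 45.3 CPM in KO 1 to 4, so the groups overlapped. None of the 45 passed the edgeR test.

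Of 20 tested inflammatory cytokines and mediators 1 was higher in all 4 pairs, Tgfb1, and 3 lower, Nos2, Ptgs2 and Tnfsf9, with a median of -0.10. Immediate early AP-1 and EGR factors respond within minutes to growth factor and stress signals. Of 27 tested members 4 (14.8%) were higher and 0 lower in all 4 pairs, with a median of 0.15. Those were Jun, Srf at 0.28 (SE 0.10), Cebpd at 0.23 (SE 0.09) and Ier2 at 0.28 (SE 0.11). The MAPK brakes, phosphatases and adaptors that end such signals, split 3 higher (16.7%) and 4 lower (22.2%) among 18. Dusp1, the early MAPK phosphatase, measured 36.9, 38.6, 60.4 and 82.4 CPM in WT 1 to 4 and 29.8, 33.4, 44.3 and 69.5 CPM in KO 1 to 4 (log2 fold change -0.30, SE 0.08, edgeR adjusted p = 0.276), and Dusp4 was at -0.33 (SE 0.10), Dusp5 at -0.75 (SE 0.25) and Dusp3 at -0.10 (SE 0.07). On the higher side Dusp7 was at 0.23 (SE 0.09), Dusp2 at 0.23 (SE 0.14) and Dusp6 at 0.15 (SE 0.08).

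Type I interferon response genes, which cells switch on when interferon binds its receptor, leaned higher. Of 49 tested genes 13 (26.5%) were higher and 0 lower in all 4 pairs, beside 9.52% and 8.26% of all tested genes, and 45 had a log2 fold change above 0. The median was 0.19 beside 0.00 over all tested genes, and the pair medians were -0.04, 0.01, 0.45 and 0.34 for numbers 1 to 4. None of the 49 passed the edgeR test, and 18 had an unadjusted p under 0.05 on the higher side, where 4.9% of all genes did.

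Irf7, the factor that amplifies interferon production, measured 191, 190, 84.6 and 122 CPM in WT 1 to 4 and 253, 197, 234 and 202 CPM in KO 1 to 4, with no overlap and a log2 fold change of 0.66 (SE 0.17, edgeR adjusted p = 0.241). Slfn1, a Schlafen gene of lymphoid and myeloid cells, measured 7.06, 3.83, 4.74 and 7.25 CPM in WT and 9.04, 6.16, 31.4 and 21.2 CPM in KO, at 1.47 (SE 0.31, edgeR adjusted p = 0.137). Its relative Slfn4 measured 11.8, 10.6, 11.3 and 11.9 CPM in WT and 16.2, 12.8, 32.9 and 28.1 CPM in KO, with no overlap, at 0.94 (SE 0.19, edgeR adjusted p = 0.126). In these 3 genes the KO library of every pair was the higher one, and pair 2 showed the smallest shift for Irf7 and Slfn4. Ifi27l2a was at 0.48 (SE 0.11), Usp18, a brake on interferon signalling, at 0.41 (SE 0.11) and Stat2 at 0.28 (SE 0.11). Blocked DESeq2 called Slfn4 and Ifi27l2a higher.

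Upstream sequences of 4 of the 13 are shown because they carry the letters of an interferon response element, GAAANNGAAA. They come from RefSeq on GRCm38.p6 and are written along the gene's own strand, for Stat2 at chr10:128270261-128270300 (plus), Oas3 at chr5:120777710-120777749 (minus), Gbp3 at chr3:142559984-142560023 (plus) and Slfn5 at chr11:82951932-82951971 (plus). Capitals mark the match, which reads as its reverse complement in Stat2 and Gbp3.
Stat2: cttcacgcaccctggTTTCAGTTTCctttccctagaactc
Oas3: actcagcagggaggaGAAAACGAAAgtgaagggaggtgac
Gbp3: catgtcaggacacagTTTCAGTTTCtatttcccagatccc
Slfn5: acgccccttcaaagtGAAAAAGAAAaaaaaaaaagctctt
In Gbp3 a further match overlaps the one shown, and in Slfn5 the match runs into a stretch of A. On either strand of the 250 upstream bases the letters were found for 17 of 38 tested interferon genes with a window (44.7%) and for 4 of the 8 with a window that were higher in all 4 pairs (50%). They were found for 322 of 9405 tested genes with a window (3.42%), and for 40 of 923 such genes higher in all 4 pairs (4.33%).

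Targets of NRF2, the transcription factor of the antioxidant response, had a negative median in 3 of the 4 pairs. Of 30 tested genes 0 were higher and 2 (6.67%) lower in all 4 pairs, beside 9.52% and 8.26% of all tested genes. The median was -0.20, and the pair medians were 0.17, -0.31, -0.23 and -0.42 for numbers 1 to 4. A log2 fold change below 0 was found for 25 of the 30. An unadjusted edgeR p under 0.05 on the lower side was reached by 11, beside 4.52% of all genes. Slc7a11, which imports cystine for glutathione synthesis, measured 11.5, 76.1, 138 and 122 CPM in WT 1 to 4 and 18.0, 35.8, 38.6 and 44.4 CPM in KO 1 to 4, a log2 fold change of -1.10 (SE 0.28, edgeR adjusted p = 0.221). Srxn1, sulfiredoxin, measured 56.5, 256, 265 and 287 CPM in WT and 67.8, 151, 154 and 144 CPM in KO, at -0.60 (SE 0.16, edgeR adjusted p = 0.246). Nqo1, a quinone reductase, measured 1.59, 12, 11.5 and 12.9 CPM in WT and 1.91, 3.69, 5.51 and 5.72 CPM in KO, at -1.13 (SE 0.21, edgeR adjusted p = 0.105). Of these 3 genes blocked DESeq2 called Nqo1 alone, as lower.

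In each of these genes the number 1 libraries were the lowest of their genotype, and pair 1 ran the other way from the other 3 pairs. Slc7a11 and Srxn1 did pass the edgeR test when the number 1 libraries were left out. They were not shifted the same way in all 4 pairs and are described here as list members chosen after their values were seen. Nfe2l2 itself, which encodes NRF2, measured 155, 184, 327 and 299 CPM in WT and 168, 179, 328 and 325 CPM in KO, at 0.05 (SE 0.07). Abcb4, described above, and G6pdx, the entry enzyme of the pentose phosphate pathway, at -0.12 (SE 0.07), were the members lower in all 4 pairs. The letters TGACNNNGC, the core of the antioxidant response element, were found on either strand upstream of 6 of 25 tested NRF2 targets with a window (24.0%), beside 1325 of 9405 tested genes (14.1%).

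Of 38 tested hypoxia and glycolysis genes 0 were called by edgeR, and 28 had a log2 fold change below 0. In all 4 pairs 2 were higher (5.26%) and 6 lower (15.8%), beside 9.52% and 8.26% of all tested genes. The median was -0.11, and the pair medians were 0.02, -0.19, -0.06 and -0.21 for numbers 1 to 4. Pdk1, the kinase that keeps pyruvate out of mitochondria, measured 36.3, 45.7, 64.4 and 61.5 CPM in WT 1 to 4 and 25.0, 38.4, 43.9 and 42.5 CPM in KO 1 to 4, a log2 fold change of -0.47 (SE 0.09, edgeR adjusted p = 0.106). P4ha2, a collagen prolyl hydroxylase subunit, was at -0.44 (SE 0.11) and Bnip3l, a mitophagy receptor, at -0.26 (SE 0.10). The higher members were the enolase gene Eno2 at 0.52 (SE 0.18) and Ddit4. Hif1a itself measured 100, 66.8, 131 and 101 CPM in WT and 89.9, 63.2, 96.9 and 101 CPM in KO, at -0.17 (SE 0.09). Genes of oxidative phosphorylation had a median of -0.03. In all 4 pairs 2 of 37 (5.41%) were higher, Ndufs3 at 0.25 and Sdhc at 0.08. The 4 lower ones (10.8%) were Ndufa5, Atp5c1, Ndufb9 and Atp5b, at -0.22 to -0.06. In the amino acid stress response 3 of 24 (12.5%) were higher and 0 lower. Sesn2 and Ddit4, brakes on mTORC1, were at 0.34 (SE 0.08) and 0.30 (SE 0.13). The serine synthesis gene Psph was at 0.25 (SE 0.15).

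Cd36, the scavenger receptor for oxidised lipoproteins and fatty acids, measured 340, 288, 1246 and 1161 CPM in WT 1 to 4 and 232, 254, 811 and 677 CPM in KO 1 to 4, a log2 fold change of -0.53 (SE 0.10, edgeR adjusted p = 0.0879). Msr1, scavenger receptor A, measured 46.8, 45.0, 152 and 147 CPM in WT and 31.5, 38.7, 122 and 112 CPM in KO, at -0.37 (SE 0.08, edgeR adjusted p = 0.171). Clec7a (dectin 1), the receptor for fungal beta-glucan, measured 5.33, 16.7, 181 and 113 CPM in WT and 4.08, 15.3, 82.1 and 73.0 CPM in KO, at -0.65 (SE 0.15, edgeR adjusted p = 0.171). Blocked DESeq2 called all 3 lower. On the list of LXR and lipid handling genes 3 of 27 (11.1%) were lower in all 4 pairs (Abcb4, Fabp4 and Cd36) and 2 (7.41%) higher, beside 8.26% and 9.52% of all tested genes, with a median of -0.04. The higher ones were Pltp, phospholipid transfer protein, at 0.23 (SE 0.11), and Lipe, hormone-sensitive lipase, at 0.21 (SE 0.09). Cholesterol synthesis had 2 of 22 (9.09%) higher, the mevalonate kinases Mvk at 0.22 (SE 0.12) and Pmvk at 0.16 (SE 0.11), and 0 lower.

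Of 46 tested lysosome genes 9 (19.6%) were higher and 2 (4.35%) lower in all 4 pairs. The shares over all tested genes were 9.52% and 8.26%, and the median of the list was 0.09. Hexa, a subunit of beta-hexosaminidase, measured 916, 1710, 772 and 760 CPM in WT 1 to 4 and 1334, 1748, 1069 and 1032 CPM in KO 1 to 4, at 0.37 (SE 0.10, edgeR adjusted p = 0.225), while Lipa, the lysosomal acid lipase, and the membrane protein gene Cd63 were each at -0.10 (SE 0.07). Of 37 macrophage identity genes 5 (13.5%) were lower in all 4 pairs (Lyz1, Lyz2, Cd36, Msr1 and Cd14) and 3 (8.11%) higher. The higher ones were Axl, a receptor for apoptotic cells, at 0.52 (SE 0.14), Cd68 at 0.21 (SE 0.09) and Tyrobp at 0.07 (SE 0.07). Of these, blocked DESeq2 called Axl. Of 18 alternative activation genes 4 (22.2%) were lower (Clec7a, Igf1, F13a1 and Stab1) and 2 (11.1%) higher (Chil3 and Kdm6b), with a median of 0.01. In antigen presentation 3 of 20 were higher and 0 lower, namely the peptide transporter gene Tap1 at 0.41 (SE 0.11), the MHC class I light chain gene B2m at 0.31 (SE 0.12) and H2-DMa at 0.21 (SE 0.11). Complement and phagocytosis receptor genes split 2 higher (7.14%, Axl and Cfp) and 3 lower (10.7%, Cd36, Msr1 and Stab1) among 28.

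Genes of monocytes and their precursors had positive medians in all 4 pairs, and none passed the edgeR test. This list too was chosen with earlier results of these data known. Blocked DESeq2 called Plac8 and Ccr2 higher and S100a4 lower. Of 26 tested genes 7 (26.9%) were higher and 2 (7.69%) lower in all 4 pairs, beside 9.52% and 8.26% of all tested genes. The median was 0.54, and the pair medians were 0.69, 0.29, 0.73 and 0.18. Plac8, a small protein of myeloid precursors, measured 2.42, 5.51, 1.8 and 3.82 CPM in WT 1 to 4 and 7.77, 8.32, 16 and 12.6 CPM in KO 1 to 4, with no overlap and a log2 fold change of 1.8 (SE 0.31, edgeR adjusted p = 0.0840). Ccr2, the chemokine receptor of inflammatory monocytes, measured 1.87, 7.00, 12.5 and 10.1 CPM in WT and 3.44, 10.4, 23.9 and 18.1 CPM in KO, at 0.81 (SE 0.13, edgeR adjusted p = 0.0509). Ly6c2, the monocyte surface antigen, measured 0.208, 1.87, 0.901 and 1.13 CPM in WT and 1.78, 3.21, 3.48 and 1.8 CPM in KO, at 1.35 (SE 0.33, edgeR adjusted p = 0.202).

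The KO library was the higher one in every pair for these 3 genes and for Ly6c1, Chil3, Cd34 and Myb. S100a4, a calcium-binding protein of motile cells, went the other way, at -0.49 (SE 0.11, edgeR adjusted p = 0.192), as did F13a1, coagulation factor XIII, at -0.41 (SE 0.13). In bulk RNA more cells of a type and more RNA per cell cannot be told apart, nor can fewer cells and less RNA. Of 12 tested neutrophil markers 2 (16.7%) were higher in all 4 pairs (Csf3r and Ltf) and 0 lower. The shares over all tested genes were 9.52% and 8.26%. The median of the list was 0.42, with pair medians of 1.12, 0.66, 0.58 and -0.21. The list summed to 115 to 159 CPM in WT and 148 to 201 CPM in KO, with the KO library higher in each pair. In pair 4 the median member was nonetheless lower. Ly6g stood at 0 counts in 7 of 8 libraries, while Mpo reached 30.6 CPM, Mmp8 23.5 CPM and S100a9 10.6 CPM. Blocked DESeq2 called Csf3r and Mpo higher, though Mpo was not higher in all 4 pairs. Of 5 tested mast cell and basophil markers 3 were higher (Prss34, Cpa3 and Hdc) and 0 lower, summing to 2.35 to 12.3 CPM in WT and 4.84 to 16.9 CPM in KO. Of the 3 tested B cell markers, the 3 T and NK cell markers and the 3 eosinophil markers, 0 were on 1 side in all 4 pairs. The part of such cells in the result was not tested.

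Extracellular matrix and fibroblast markers had the highest median of any list, 1.07, but the pair medians differed in direction, at -0.70, -0.09, 2.14 and 0.78. By the blocked fit 22 of the 23 tested markers had a log2 fold change above 0. An unadjusted edgeR p under 0.05 on the higher side was reached by 14 of them, beside 4.9% of all genes. Of 23 tested markers 2 (8.70%) were higher in all 4 pairs, beside 9.52% of all tested genes. They were the fibrillin gene Fbn1 at 1.11 (SE 0.29) and the smooth muscle gene Tagln at 0.56 (SE 0.18). Col1a1, the main collagen of fibroblasts, measured 1.11, 1.31, 0.979 and 6.96 CPM in WT 1 to 4 and 0.510, 0.579, 13.2 and 18.9 CPM in KO 1 to 4, higher in 2 pairs and lower in 2. The markers summed to 318, 343, 214 and 306 CPM in WT 1 to 4 and 425, 351, 314 and 387 CPM in KO 1 to 4, with the KO library higher in each pair. In pairs 1 and 2 the median member was lower in KO, so the sums there do not describe the markers as a group. The part of these markers in the other differences was not tested.

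Of 50 tested cell cycle genes 1 was higher (2.00%) and 7 lower (14.0%) in all 4 pairs, beside 9.52% and 8.26% of all tested genes. The median was -0.17, and the pair medians were -0.22, 0.08, -0.24 and -0.23. Ccne2, an S phase cyclin, measured 4.22, 2.15, 13.6 and 7.93 CPM in WT 1 to 4 and 2.93, 1.63, 6.02 and 6.6 CPM in KO 1 to 4, at -0.64 (SE 0.19, edgeR adjusted p = 0.302). Tpx2, a spindle factor, was at -0.31 (SE 0.09), and Ccnd2, the D-type cyclin that was the single higher member, at 0.54 (SE 0.17). Of 55 cytosolic ribosomal protein genes 9 were higher (16.4%) and 0 lower, beside 9.52% and 8.26% of all tested genes. Their median was 0.07, with pair medians of 0.15, 0.06, 0.13 and 0.000685. Rps16 had the smallest p among them at 0.32 (SE 0.08, edgeR adjusted p = 0.214). None of the genes in these groups passed the test.

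**Figure D5:**
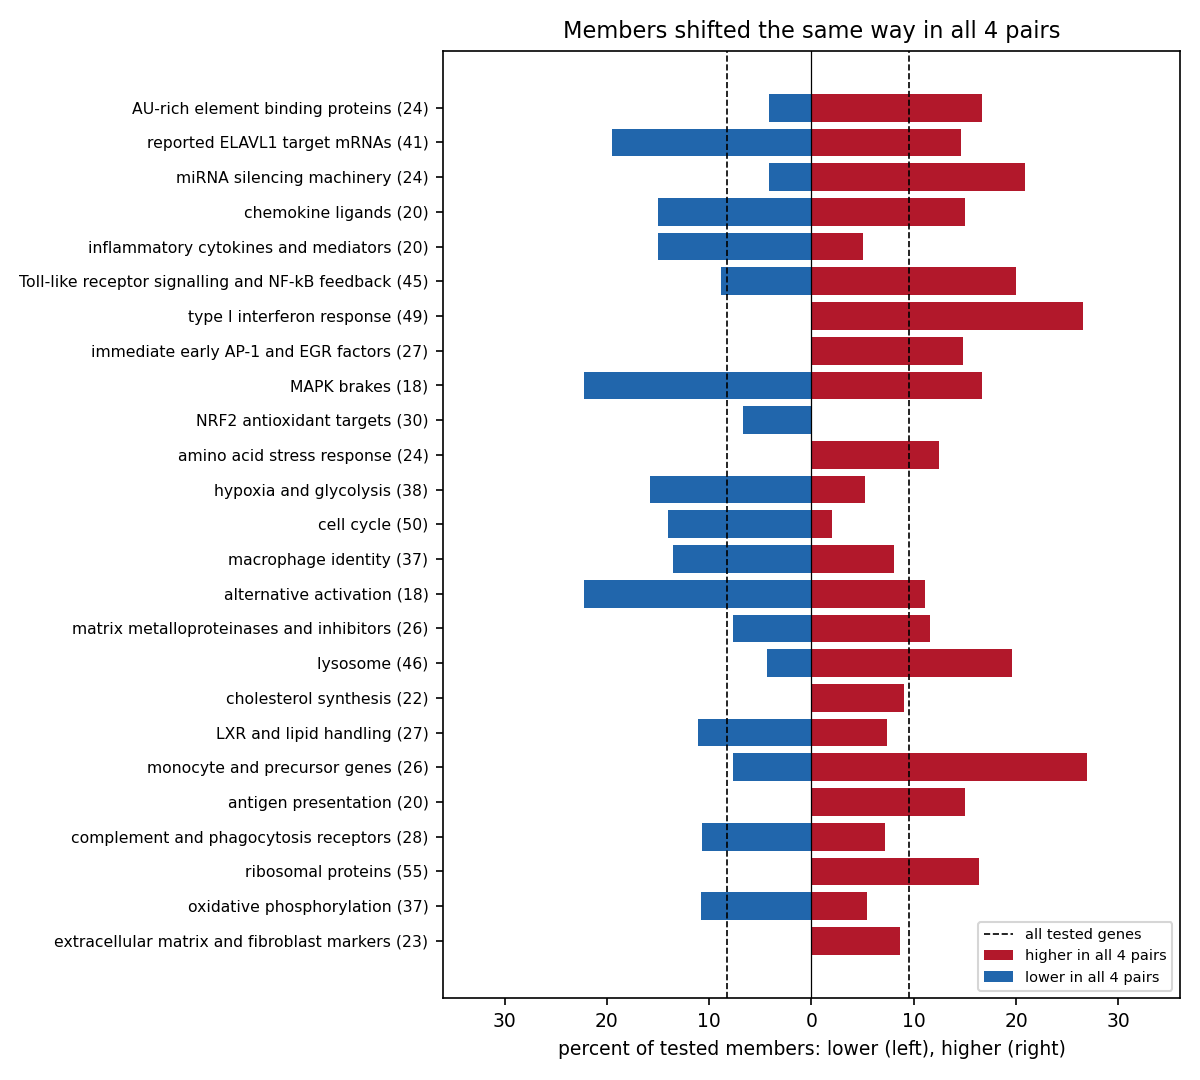
Percent of the tested members of each gene list (number tested in brackets) that were higher (red, right) or lower (blue, left) in KO in all 4 pairs, for lists with at least 15 tested members, with dashed lines at the percentages over all tested genes. The bars for type I interferon response and for monocyte and precursor genes reach 26.5% and 26.9% on the right, and no NRF2 target reached the right side at all. The lists were chosen with earlier results of these data known.

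Across the genome the 4 pairs had little in common. Over 10461 genes with a mean of at least 5 CPM, the log2 KO over WT ratios of 1 pair correlated with those of another at Pearson's r of -0.05 to 0.27, given as a description because genes are not independent and both libraries of a pair share their number.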

How the data were processed

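Per the file headers, the authors deposited for each mRNA library a read count and an RPKM value, which scales for gene length and depth, for each of 21444 Ensembl genes. The submitters' processing notes name CASAVA 1.8.2, Bowtie 0.12.7 and mm9. Which gene counter made them, with what use of strand and of reads with several matches, is not given in the sources used here. A name table paired 19328 identifiers with symbols. The deposited counts were tested with edgeR 4.0.16 (R 4.3.3) by quasi-likelihood, with TMM scaling, filterByExpr, genotype and the replicate number as a block, and Benjamini-Hochberg adjustment at 0.05. RPKM served only for ranks of level. DESeq2 1.42.0, other scalings, filters, blocks and left-out numbers were alternatives. The pipeline was also run on counts simulated with the replicate block and its spread. That run takes the pairing as given, so it cannot test it.

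Whether equal numbers pair the libraries was checked by correlating deviations from the group means over 10463 genes. The r was 0.878, 0.894, 0.813 and 0.867 for numbers 1 to 4, above the minimum of 0.1. WT 1 with KO 2 at 0.263 and WT 2 with KO 1 at 0.382 also passed that minimum, so it does not single out equal numbers. WT 4 and KO 3 gave 0.897, and WT 3 and KO 4 gave 0.867, so numbers 3 and 4 are not told apart by it. Pairs 3 and 4 therefore rest on the labels alone. No test set numbers 1 and 2 against 3 and 4. Fits of KO against WT within each of these sets alone are given below only as alternatives.

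The comparison, the 36 gene lists and the tests were chosen with earlier results of these data known. Named were Elavl1 to Elavl4, Lyz1, Lyz2, Zfp36, Tnf and all edgeR calls. Added were the 12 higher and 12 lower genes of smallest p with all 4 pairs in 1 direction and a mean of at least 5 CPM. Also named were up to 4 such members per list and direction with at least 1 CPM. Other list members were chosen after their values were seen. Upstream sequences came from a RefSeq table on GRCm38.p6 matched by symbol, which held 9405 of 13106 symbols of tested genes. Of 11197 genes with at least 500 counts, 141 shared all 8 counts with another gene, and of these edgeR called 0 and DESeq2 called 2 (Gm12715 and an unnamed copy, 1 set of counts listed under both). The small RNA and PAR-CLIP libraries were not used here.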

Additional observations from a re-analysis of the deposited data

Results flagged for a closer look

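In 4 of 54 groups of 4 libraries checked, 1 library stood apart by Dixon's criterion, which chance alone meets in about 1 group in 20. For Mmp9 the highest KO library, KO 1, stood at 118 CPM beside 15.2 to 28.8 CPM in the others. For Cxcl2 the same library stood at 6.37 CPM beside 1.42 to 1.92 CPM. For Tnf it stood at 99.6 CPM beside 52.8 to 60.4 CPM. In all 3 genes WT 1 was also the highest WT library, at 58.5 CPM for Mmp9, 18.1 CPM for Cxcl2 and 95.2 CPM for Tnf. For Zfp36 the highest WT library, WT 4, stood at 194 CPM beside 133 to 139 CPM, and KO 4 was the highest KO library at 253 CPM.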

How the results depend on the processing

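The 5 calls were made in every fit over all 8 libraries that held the replicate block, whatever the scaling, filter or tool, but the number of further calls varied widely. With no replicate block edgeR called 0 genes (81 at an unadjusted p under 0.05) and DESeq2 called 3, all lower (Lyz1, Lyz2 and Tep1). With the replicate block DESeq2 called 82 (35 higher, 47 lower), the newer edgeR dispersion fit 24 (10 higher, 14 lower), the robust fit 18 (6 and 12), upper quartile scaling 16 (5 and 11) and no filter on low counts 338 (180 and 158). With numbers 1 and 2 alone 26 genes were called (8 higher, 18 lower) and with numbers 3 and 4 alone 116 (77 and 39). These fits have 1 residual degree of freedom per gene and share their spread over genes. With the set of numbers 1 and 2 or 3 and 4 as the block, an alternative chosen after seeing the data, 1 gene was called, the lower Lyz1, and 0 higher.

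Leaving out 1 number at a time gave 3 to 29 calls, 0 to 17 higher and 3 to 12 lower. Without number 2 there were 29, and without number 1 there were 4, namely Lyz1, Lyz2, Slc7a11 and Srxn1. Genes with all remaining pairs in 1 direction, of which fewer pairs give more, numbered 1941 to 2333 higher and 1815 to 2318 lower, and list members 127 to 178 higher and 83 to 119 lower, beside 103 and 51 with all pairs. With every pair past 1.2-fold 86 were higher and 129 lower. The median of inflammatory cytokines and mediators ran from -0.13 to -0.034 (without number 2) and that of alternative activation genes from -0.16 (without number 2) to 0.049. With no filter the dendritic cell marker median was 0.39, and at a mean of at least 5 CPM the erythroid and megakaryocyte median was -0.000864. The log2 fold change of Tnf ran from -0.18 to 0.024 with 1 number left out, reversed without number 3, and was 0.13 with numbers 1 and 2 alone. The cause was not tested in any of these. Counting error limits genes of few reads such as Cxcl2, Timp1 and Ly6c2, and KO 1 is the shallowest library at 8160789 counts.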
